A study of Mus musculus with 209 samples.

Results

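The alpha and beta tubulin isotypes are the interchangeable gene products from which microtubules are built. The 10 genes described here, Tuba1a, Tuba1b, Tuba1c, Tuba4a, Tubb2a, Tubb2b, Tubb3, Tubb4b, Tubb5 and Tubb6, were chosen by symbol and were all present among the 24450 gene rows of the oocyte and 2-cell count tables and the 24446 shared gene rows of the epiblast tables. They were chosen with it already known that Tuba1c was higher in knockout oocytes, so that difference is given as a description only. An alpha and a beta tubulin pair as a dimer, and dimers add to the ends of microtubules, which form the spindle of the egg and of each cleavage division. Isotypes of one class are very similar proteins that differ mainly in their tails, where enzymes add modifications. Tuba1a, Tuba1b and Tuba1c are close alpha paralogs, Tuba4a is a more distant alpha isotype, Tubb5 and Tubb4b are beta isotypes used in most tissues, Tubb2a and Tubb2b are near-identical beta isotypes abundant in brain, Tubb3 is best known as a neuronal beta isotype, and Tubb6 is the most divergent of these beta isotypes.

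The study measured polyadenylated RNA in single mouse MII oocytes, the ovulated egg, in 2-cell samples and in epiblast, the layer of the early embryo that forms the body. The groups were 9 KO 2-cell samples, 8 WT 2-cell samples, 19 KO oocytes, 14 WT oocytes, 2 IVC epiblasts and 2 E6.5 epiblasts. The KO label is N14 maternal KO. It is taken to mean that mothers lacked Nlrp14, an oocyte protein of the NLRP family; the way the allele was made and the fathers' genotype at the gene are not given. Per the protocols the females were C57BL/6, aged 6 to 8 weeks and superovulated with PMSG and hCG. The hCG dose preceded collection by 14 to 15 hours for oocytes and by 42 to 43 hours for 2-cell embryos. Fathers of the embryos were C57BL/6 or PWK males, and which of them sired each 2-cell sample is not labelled. Both epiblast groups are labelled WT with C57BL/6 mothers and fathers; the E6.5 title also carries ND, whose meaning is not given, and IVC names the culture group with no day. No label names the animal behind an oocyte or 2-cell library, so each of those 4 groups counts as 1 sample, its counts were pooled, and no test was run between them. The unit below is CPM, a gene's count for every 1000000 gene counts of its library or pool. A gene was compared where either pool reached 10 CPM, and called higher or lower at a 2-fold difference of pooled CPM. Each ratio has an exact 95% interval that covers counting error only.

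Library totals were 2704050 to 15007301 counts in KO 2-cell samples, 3788348 to 10303580 in WT 2-cell samples, 4585916 to 10637866 in KO oocytes, 3933604 to 13052327 in WT oocytes, 10241401 to 10377163 in IVC epiblasts and 11826853 to 24047088 in E6.5 epiblasts. Nlrp14 was at 63.7 CPM in the KO 2-cell pool and 259.6 CPM in the WT 2-cell pool, and at 36.7 CPM in the KO oocyte pool and 726 CPM in the WT oocyte pool. The oocyte libraries fell into sets that are not groups of the study. Spike-in RNA made up over 0.01% of counts in 7 KO and 10 WT oocytes and in every 2-cell library (spike-in libraries). Of the other oocytes, 10 KO and 3 WT had under 1% of counts on the ribosomal RNA gene Rn45s (low-rRNA libraries), and 2 KO and 1 WT had more (remaining libraries). WT 2-cell replicate 8 stood apart from the other 7 WT 2-cell libraries towards the KO ones, so results are also given without it. All 10 oocyte markers had counts in both oocyte groups, with summed levels of 8072 to 29595 CPM in KO and 6276 to 26149 CPM in WT oocytes. Summed markers of cumulus and granulosa cells were at 48.0 to 210.3 CPM in KO and 44.3 to 119 CPM in WT oocytes. Of those 10 markers 4 reached 1 CPM in the KO pool and 1 in the WT pool, with Foxl2, Amh and Fshr at 0 in KO and Ptx3 at 0 in WT, and their part in the oocyte differences was not tested.

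The promoters of 6 isotypes are printed. The 3 Tuba1 paralogs, Tubb3, Tubb4b and Tubb5 were each called in a genotype or stage comparison, as were Tuba4a, Tubb2a and Tubb6, which are not printed. Being called thus does not set the printed isotypes apart. Tubb5 is printed because it differed between library sets, and Tubb4b for its repeated motif. Each is the RefSeq window of GRCm38.p6 from 250 bases before to 50 after the annotated start, given 5′ to 3′ on the gene's strand. Capitals mark CCAAT, the letters bound by the factor NF-Y, or its complement ATTGG.
Tuba1a, chr15:98953452-98953751, minus strand: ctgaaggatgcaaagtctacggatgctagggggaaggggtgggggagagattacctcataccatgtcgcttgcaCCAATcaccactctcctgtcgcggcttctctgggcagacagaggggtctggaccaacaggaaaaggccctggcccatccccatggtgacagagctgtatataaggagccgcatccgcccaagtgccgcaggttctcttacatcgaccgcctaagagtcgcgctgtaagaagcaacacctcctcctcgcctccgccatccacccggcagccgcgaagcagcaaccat
Tuba1b, chr15:98934341-98934640, minus strand: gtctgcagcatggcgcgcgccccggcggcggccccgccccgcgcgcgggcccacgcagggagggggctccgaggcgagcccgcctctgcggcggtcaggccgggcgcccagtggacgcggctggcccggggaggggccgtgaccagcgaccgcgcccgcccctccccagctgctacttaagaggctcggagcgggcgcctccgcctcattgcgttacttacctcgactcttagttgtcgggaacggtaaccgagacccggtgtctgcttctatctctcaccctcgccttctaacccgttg
Tuba1c, chr15:99029641-99029940, plus strand: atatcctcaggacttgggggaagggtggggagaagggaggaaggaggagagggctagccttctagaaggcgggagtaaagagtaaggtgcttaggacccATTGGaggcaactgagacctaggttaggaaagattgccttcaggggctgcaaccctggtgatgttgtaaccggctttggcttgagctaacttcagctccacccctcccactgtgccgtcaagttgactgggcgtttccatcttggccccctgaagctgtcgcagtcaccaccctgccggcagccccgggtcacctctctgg
Tubb3, chr8:123411303-123411602, plus strand: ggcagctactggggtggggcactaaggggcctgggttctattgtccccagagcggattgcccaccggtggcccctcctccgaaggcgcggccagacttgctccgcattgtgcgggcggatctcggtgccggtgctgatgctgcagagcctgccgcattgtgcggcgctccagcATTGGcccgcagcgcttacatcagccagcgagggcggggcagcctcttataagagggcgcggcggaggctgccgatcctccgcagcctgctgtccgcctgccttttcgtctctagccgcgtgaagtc
Tubb4b, chr2:25224653-25224952, minus strand: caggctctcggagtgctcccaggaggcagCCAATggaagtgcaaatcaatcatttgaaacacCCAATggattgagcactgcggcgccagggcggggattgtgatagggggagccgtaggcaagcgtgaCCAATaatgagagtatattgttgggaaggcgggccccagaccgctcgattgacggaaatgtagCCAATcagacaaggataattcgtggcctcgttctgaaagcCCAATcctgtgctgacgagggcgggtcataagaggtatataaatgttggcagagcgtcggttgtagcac
Tubb5, chr17:35838252-35838551, minus strand: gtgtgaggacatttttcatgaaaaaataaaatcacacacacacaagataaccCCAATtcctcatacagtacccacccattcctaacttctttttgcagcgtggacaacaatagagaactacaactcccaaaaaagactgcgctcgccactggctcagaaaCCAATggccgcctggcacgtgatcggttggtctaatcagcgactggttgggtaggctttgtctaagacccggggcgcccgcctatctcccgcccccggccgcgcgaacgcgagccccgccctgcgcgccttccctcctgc
The 3 Tuba1 genes lie in 1 cluster on chromosome 15, Tuba1c on the strand opposite to Tuba1a and Tuba1b. CCAAT on either strand was present in 37.4% of all 32851 promoter windows. Tuba1a held 1 match at position -176, Tuba1c 1 at -151 and Tubb3 1 at -77, counted from the start as 0. Tuba1b held 0, Tubb5 held 2 and Tubb4b 5, where 11.7% of windows held 2 or more. GGGCGG on either strand, present in 35.7% of windows, was found 1 time in Tuba1a, 2 times in Tuba1b, 0 times in Tuba1c and 2 times in each of Tubb3, Tubb4b and Tubb5. TATAAA on either strand, present in 13.6% of windows, was found 1 time in Tubb4b, after the annotated start, and in none of the other 5 printed. Of the 10 isotypes 8 had a window, with Tuba4a and Tubb2a holding 0 CCAAT matches and 2 GGGCGG matches each. Tubb2a also held 1 TATAAA match, at position -29, and Tuba4a held 0. Tubb2b and Tubb6 are named only. The submitters' processing notes name build mm9 for the counts, so these coordinates apply to the promoter table alone.

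In oocytes, Tuba1c was 3.12-fold higher in the KO pool than in the WT pool, and it was the largest difference among the isotypes that reached 10 CPM. Over all libraries Tuba1c was at 4.58 to 135 CPM with a median of 40.9 in 19 KO oocytes, against 2.08 to 56.2 CPM with a median of 18.5 in 14 WT oocytes. The groups overlapped over all libraries, and Tuba1c also differed between library sets. How reads shared with its paralogs Tuba1a and Tuba1b were counted is not stated, so the split among the 3 genes is uncertain, as is that between Tubb2a and Tubb2b. Within the spike-in libraries it was at 80.7 to 127 CPM with a median of 97.0 in 7 KO oocytes, against 4.69 to 33.9 CPM with a median of 19.3 in 10 WT oocytes. There all 7 KO libraries lay above all 10 WT libraries, which held for 7.07% of the genes compared. Within the low-rRNA libraries it was at 4.58 to 40.9 CPM with a median of 19.6 in 10 KO oocytes, against 2.08, 3.95 and 14.3 CPM in 3 WT oocytes. Levels were several times lower in that set in both genotypes, and the genotypes overlapped. The remaining libraries held 85.2 and 135 CPM in 2 KO oocytes and 56.2 CPM in 1 WT oocyte. The log2 ratio was 1.64 (1.57 to 1.71) over all libraries, 2.39 (2.30 to 2.48) in spike-in libraries, 1.49 (1.30 to 1.69) in low-rRNA libraries and 0.95 (0.80 to 1.10) in the remaining ones.

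Of the 10 isotypes, 6 reached 10 CPM in an oocyte pool, of which 2 were at least 2-fold higher in KO and 0 lower. The background was 2.04% of 6325 genes higher and 2.39% lower, and since this contrast was known when the isotypes were chosen nothing is read from the count. The second was Tubb5, at 133.8 CPM in the KO pool and 61.1 CPM in the WT pool (log2 1.13). Its level was set by library set more than by genotype. In spike-in libraries Tubb5 was at 7.38 to 20.5 CPM in KO and 5.40 to 15.9 CPM in WT oocytes, while in low-rRNA libraries it was at 161 to 382 CPM in KO and 78.0 to 278 CPM in WT oocytes. No spike-in library of either genotype came near any low-rRNA library. Within sets the log2 ratio of Tubb5 was 0.34 (0.18 to 0.50), 0.52 (0.47 to 0.56) and 0.30 (0.11 to 0.50), in spike-in, low-rRNA and remaining libraries, each under 2-fold; in the low-rRNA set 1.98% of genes were higher and 2.03% lower. Over all libraries the Tubb5 ratio was 0.96 without KO replicate 2 and 1.83 without WT replicate 3, and the KO group held more low-rRNA libraries than the WT group. Whether the sets differ by preparation, counting or the cells was not tested.

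**Figure D1:**
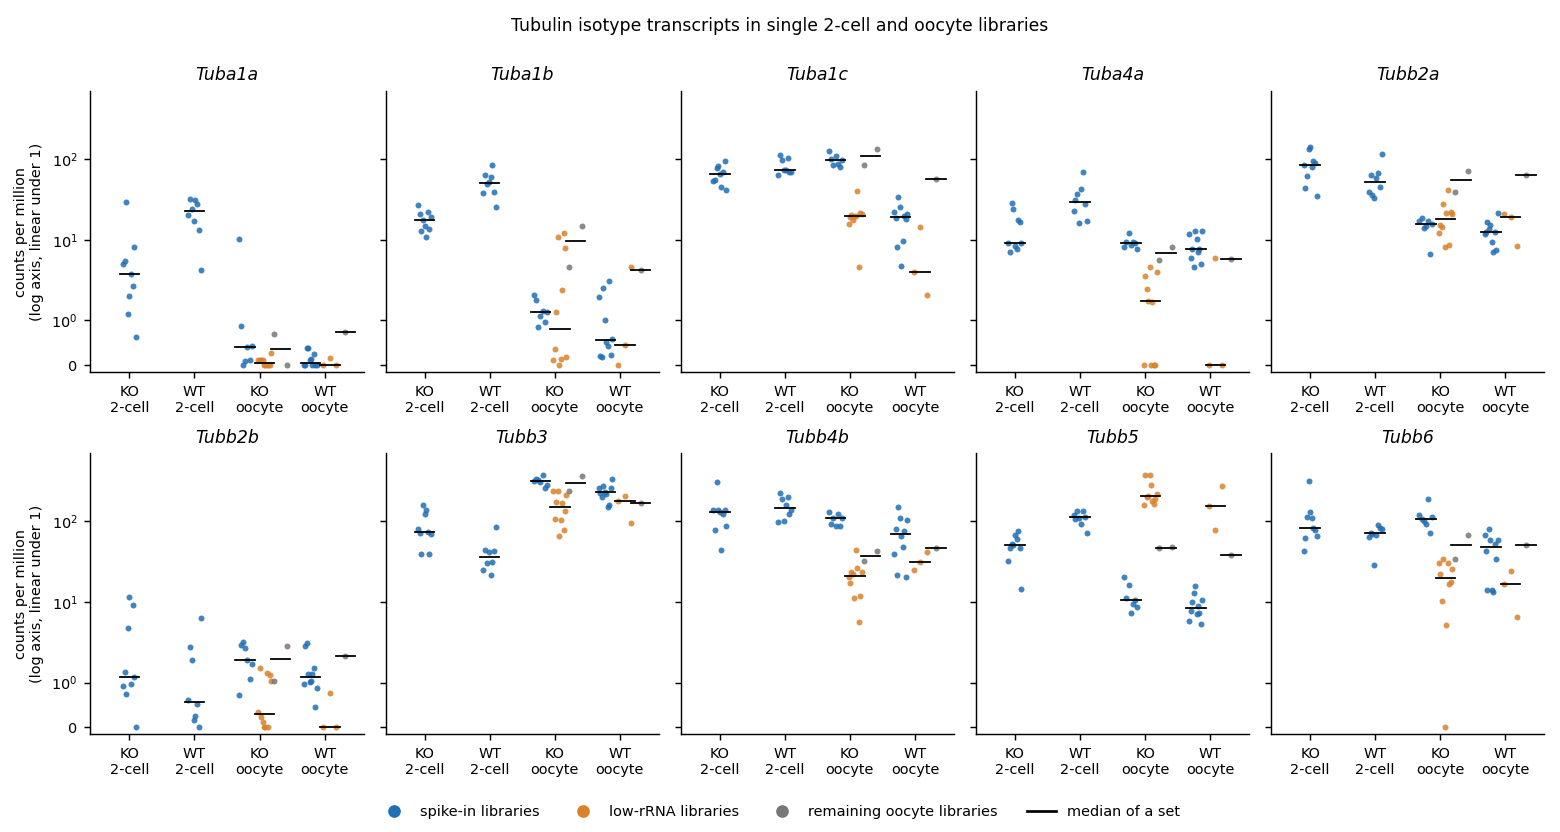
CPM of the 10 isotypes in each KO 2-cell, WT 2-cell, KO oocyte and WT oocyte library, on an axis that is logarithmic above 1 and linear below; colours mark the library sets and black lines the median of each set. Tuba1c spike-in libraries sit at 80.7 to 127 CPM in KO oocytes and at 4.69 to 33.9 CPM in WT oocytes, while Tubb5 differs between library sets in both genotypes.

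The other beta isotypes in oocytes were under 2-fold apart over all libraries. Tubb6 was at 59.7 CPM in the KO pool and 36.6 CPM in the WT pool (log2 0.71). In spike-in libraries it was at 71.2 to 191 CPM in KO and 13.3 to 80.0 CPM in WT oocytes, a log2 ratio of 1.35 (1.28 to 1.41) with overlap. The background of that set was 9.41% of genes higher and 3.69% lower by 2-fold. Low-rRNA libraries gave Tubb6 a ratio of 0.31, so its difference stood in the spike-in set. Tubb3 was at 66.3 to 373 CPM in KO and 95.8 to 332 CPM in WT oocytes (log2 0.15). Tubb4b had 55.8 CPM in the KO pool and 58.8 CPM in the WT pool (log2 -0.07), with 0.51 in spike-in and -0.61 in low-rRNA libraries. The direction of Tubb4b thus turned between the sets, and over all libraries it was at 0.11 without WT replicate 7, 0.04 without WT replicate 8 and 0.00 without WT replicate 13. Tubb2a had 20.4 CPM in the KO pool and 18.3 CPM in the WT pool (log2 0.15).

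Tuba1a, Tuba1b, Tuba4a and Tubb2b stayed under 10 CPM in both oocyte pools. Tuba1a was at 10.3 CPM in KO replicate 11 and under 1 CPM in each of the other 32 oocytes. Tuba1b was at 0 to 14.9 CPM in KO and 0 to 4.62 CPM in WT oocytes. Tuba4a was at 0 to 12.2 CPM in KO and 0 to 13 CPM in WT oocytes. Tubb2b was at 0 to 3.17 CPM in KO and 0 to 3.08 CPM in WT oocytes. These 4 isotypes were thus near or below the level compared in both genotypes.

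Summed over the 4 alpha isotypes, the KO oocyte pool held 66.4 CPM and the WT oocyte pool 26.5 CPM, a log2 ratio of 1.32 (1.26 to 1.39). Summed over the 6 beta isotypes, the pools held 503.8 CPM in KO and 385.4 CPM in WT, a log2 ratio of 0.39. Tuba1c made up most of the counts of these 4 alpha isotypes in both pools. Its share of the 4 alpha isotypes was 86.8% (86.1 to 87.4) in KO and 69.6% (67.9 to 71.2) in WT oocytes. In spike-in libraries the share was 86.0 to 91.8% in KO and 30.2 to 81.9% in WT oocytes. Shares are of counts, not corrected for transcript length. They also depend on which alpha rows are summed: with Tuba3a, Tuba3b, Tuba8 and Tubal3 in the sum, Tuba1c took 19.3% in KO and 12% in WT oocytes. That sum was 298.7 CPM in KO and 153.3 CPM in WT (log2 0.96). Among the beta isotypes Tubb3 took 56.1% in KO and 62.7% in WT spike-in libraries, while in low-rRNA libraries Tubb5 took 51.3% in KO and 41.8% in WT.

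**Figure D2:**
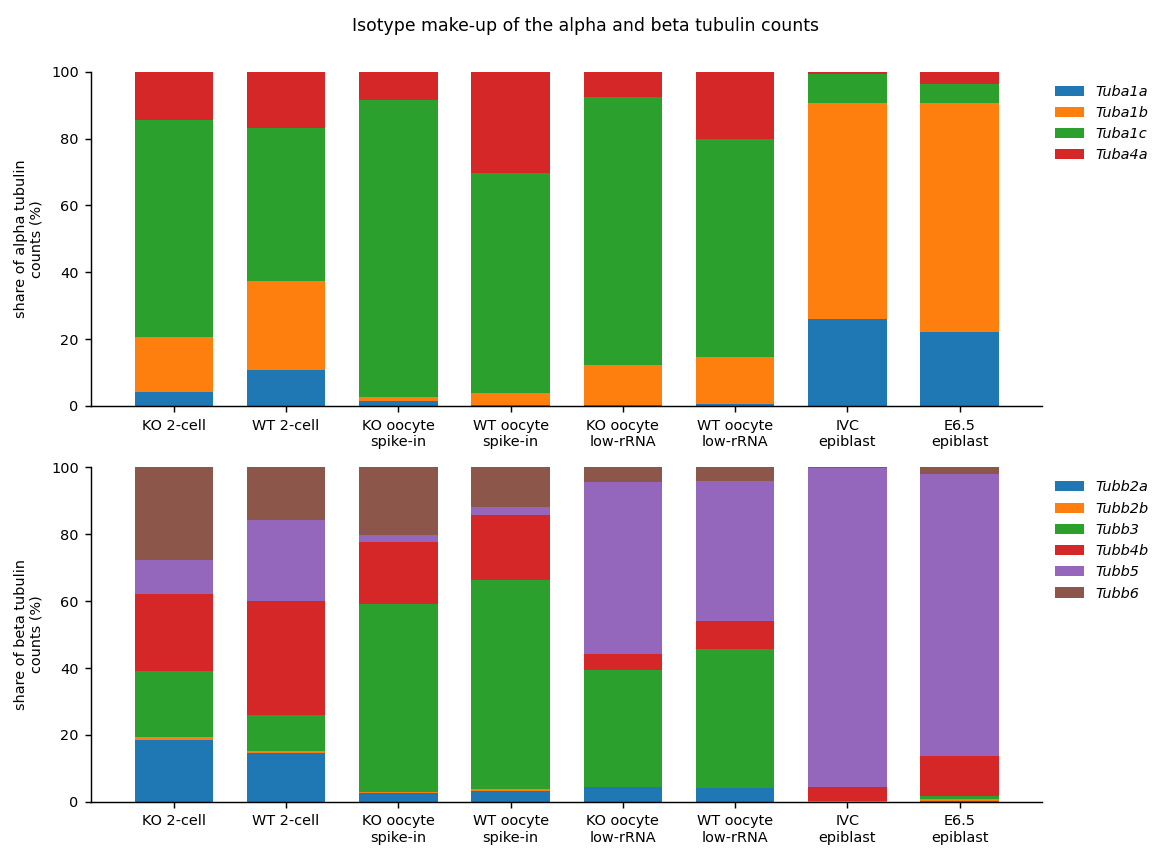
Share of alpha (top) and beta (bottom) tubulin counts taken by each isotype in pooled KO and WT 2-cell libraries, KO and WT oocytes by library set, and IVC and E6.5 epiblast; shares are not corrected for transcript length. Of the alpha isotypes summed here, Tuba1c takes most counts in every oocyte pool shown and Tuba1b most in epiblast. Tubb5 takes 95.2% of beta counts in IVC and 84.2% in E6.5 epiblast.

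Over the 33 oocytes, the genes whose log2(CPM + 1) tracked Tuba1c best by Spearman correlation, among 6325 genes and with predicted gene models passed over, were Fcgbp (rho 0.83), Odc1 (0.82), Mier2 (0.81), Ccdc115 (0.81) and Gtf2b (0.81). Odc1 is the first enzyme of polyamine synthesis and Gtf2b a general transcription factor. Of the isotypes Tubb6 came nearest, with a rho of 0.78 and rank 14, then Tubb3 (0.66), Tubb4b (0.57), Tubb2a (0.37) and Tubb5 (-0.20). The points share library sets and genotype, and the values changed within the sets. For Tubb6 the rho was 0.94 over the spike-in set and 0.14 over the low-rRNA set, for Tubb3 0.77 and 0.04, for Tubb4b 0.70 and -0.14, and for Tubb2a 0.49 and 0.50. For Tubb5 it was 0.48 and 0.27, so the negative sign over all oocytes turned within both sets. Of the 5 nearest genes the rho was 0.75 to 0.89 over the spike-in set and 0.26 to 0.55 over the low-rRNA set.

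Of the other genes of microtubule assembly, few were 2-fold apart between KO and WT oocytes, where 2.04% of all genes were higher and 2.39% lower. Of 5 other tubulin genes compared 1 was higher in KO over all libraries, Tuba3b, an alpha isotype best known from testis, at 23.0 CPM in the KO pool and 8.93 CPM in the WT pool (log2 1.37). The gene called changed with the library set: in spike-in libraries Tuba3b had a log2 ratio of 0.92, and Tuba3a, another alpha isotype, was 2-fold higher at 82.1 CPM in KO and 28.6 CPM in WT (1.52), while in low-rRNA libraries Tuba3b was at 2.07 and Tuba3a at 0.22. Over all libraries Tuba3a was at 112.9 CPM in KO and 57.7 CPM in WT (0.97), and Tubal3, an alpha-like tubulin, at 96.3 CPM in KO and 60.1 CPM in WT (0.68). Of 17 folding genes compared over all libraries 1 was lower, Vbp1, a prefoldin subunit that carries new tubulin to the chaperonin, at 63.5 CPM in KO and 140.2 CPM in WT (log2 -1.14). In spike-in libraries 2 of 16 folding genes were higher and 1 lower, beside 9.41% and 3.69% of genes. In low-rRNA libraries 1 of 15 was higher and 0 lower, beside 1.98% and 2.03%. Of 11 nucleation, 7 modification and 17 microtubule-associated or severing genes compared over all libraries, 0 were 2-fold apart. In spike-in libraries 1 of 11 nucleation and 1 of 8 modification genes were higher. The median log2 ratio was 0.68 in the other tubulin genes, 0.31 in nucleation, 0.02 in folding, 0.08 in microtubule-associated and severing genes, -0.31 in modification and 0.02 over all genes.

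At the 2-cell stage the isotypes parted in WT embryos: Tuba1a and Tuba1b, barely present in oocytes, were well detected, and Tubb3 was lower. In 8 WT 2-cell samples Tuba1b was at 25.6 to 85.3 CPM with a median of 50.2, against 0 to 4.62 CPM in WT oocytes (log2 ratio of pools 4.99, 4.76 to 5.23). Tuba1a was at 4.27 to 32.4 CPM with a median of 22.5 in WT 2-cell samples, against 0 to 0.74 CPM in WT oocytes (log2 6.90, 6.21 to 7.69). Neither gene overlapped between the stages, which held for 18% of genes on the higher side. The Tuba1a ratio was 7.54 without WT oocyte replicate 14. Tuba1c was at 64.1 to 113 CPM in WT 2-cell samples and 2.08 to 56.2 CPM in WT oocytes (log2 2.13), again without overlap. Tuba4a was at 16.4 to 69.4 CPM in WT 2-cell samples and 0 to 13 CPM in WT oocytes (log2 2.20), also apart. All 4 alpha isotypes were therefore higher in WT 2-cell samples.

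Among the beta isotypes Tubb2a was higher in WT 2-cell samples, at 64.1 CPM pooled against 18.3 CPM in WT oocytes (log2 1.81), and so was Tubb4b, at 149.5 CPM against 58.8 CPM (log2 1.35). Tubb3 was at 21.7 to 86.0 CPM with a median of 36.7 in WT 2-cell samples, against 95.8 to 332 CPM with a median of 214 in WT oocytes (log2 -2.16). The stages did not overlap for Tubb3, which held for 5.20% of genes on the lower side. Tubb5 and Tubb6 were under 2-fold apart over all libraries (log2 0.80 and 0.92). Every 2-cell library belongs to the spike-in set by its spike-in share, so spike-in oocytes are closer on that measure alone. Against them Tubb5 was at 72.4 to 136 CPM in WT 2-cell samples and 5.40 to 15.9 CPM in WT oocytes (log2 3.49, 3.36 to 3.61). WT low-rRNA oocytes held 78.0 to 278 CPM of Tubb5, which overlaps the 2-cell range. Rn45s took 0.62 to 1.71% of counts in WT 2-cell samples. It took 1.20 to 3.55% in WT spike-in oocytes and 0.17 to 0.51% in WT low-rRNA oocytes. Whether the Tubb5 ratio is one of stage or of library set was not tested. Left out of the comparison over all libraries, WT oocyte replicate 1 or 3 took Tubb5 to 1.08 or 1.5, and WT 2-cell replicate 4 or WT oocyte replicate 7 or 8 took Tubb6 to 1.05, 1.06 or 1.01. In all, 6 of 9 isotypes compared were higher and 1 lower over all libraries, beside 41.1% and 14.3% of genes, and 7 were higher and 1 lower against spike-in oocytes, beside 42.1% and 12.8%. The median log2 ratio was 1.81 in the isotypes and 0.64 over all genes. TMM factors took 0.57 from every gene, after which 5 isotypes were higher and 1 lower, beside 2589 and 2093 of 8532 genes.

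KO embryos gave a different set of stage values. The 2 stage comparisons share no library, and their difference was not tested. Tuba1b was at 10.8 to 26.8 CPM in KO 2-cell samples against 0 to 14.9 CPM in KO oocytes (log2 2.61; 3.70 against spike-in oocytes). Tuba1a had 4.2 CPM in the KO 2-cell pool and 0.76 CPM in the KO oocyte pool, both under the level compared. Tuba1c was at 41.2 to 94.0 CPM in KO 2-cell samples against 4.58 to 135 CPM in KO oocytes (log2 0.22; -0.55 against spike-in oocytes). The alpha isotypes together had a log2 ratio of 0.64 over all libraries and -0.10 against spike-in oocytes, where WT embryos had 2.73 and 2.61. Summed over all alpha rows the KO direction turned, at 239.5 CPM in KO 2-cell samples and 298.7 CPM in KO oocytes (-0.32), and WT had 233.1 CPM in 2-cell samples and 153.3 CPM in oocytes (0.60). Tubb2a (log2 2.25), Tuba4a (1.54), Tubb6 (1.29) and Tubb4b (1.12) were also higher in KO 2-cell samples over all libraries, and Tubb3 (-1.14) and Tubb5 (-1.31) were lower. Tubb6 was at 0.59 without KO 2-cell replicate 4. Against spike-in oocytes Tubb5 was higher, at a log2 ratio of 2.17, the reverse of its value over all libraries. In all, 5 of 8 isotypes compared were higher and 2 lower, beside 23.6% and 17.4% of genes; against spike-in oocytes 3 were higher and 1 lower, beside 19.5% and 16.3%.

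Compared directly at the 2-cell stage, KO samples held less Tuba1a and Tuba1b and more Tubb3 and Tubb6 than WT samples. Of 9 isotypes compared 2 were at least 2-fold higher and 2 lower, beside 5.96% and 31.6% of 8416 genes. Tuba1a was at 0.64 to 29.2 CPM with a median of 3.75 in 9 KO samples, against 4.27 to 32.4 CPM with a median of 22.5 in 8 WT samples (log2 -2.15, -2.36 to -1.95). All KO samples but replicate 3 lay below the WT median of Tuba1a. Tuba1b was at 10.8 to 26.8 CPM with a median of 17.7 in KO samples, against 25.6 to 85.3 CPM with a median of 50.2 in WT samples (log2 -1.45, -1.56 to -1.34). Overlap came from WT replicate 8 alone, and without it the Tuba1b groups lay apart, which held for 13.4% of genes on the lower side. Tuba4a was at 7.08 to 28.8 CPM with a median of 9.17 in KO samples, against 16.4 to 69.4 CPM with a median of 29.4 in WT samples (log2 -0.97). The Tuba4a ratio passed 2-fold, at -1.01 to -1.29, without any 1 of KO replicates 3, 4 and 7 and WT replicates 1, 4 and 8. Tuba1c was at 41.2 to 94.0 CPM with a median of 65.9 in KO samples, against 64.1 to 113 CPM with a median of 74.0 in WT samples (log2 -0.26). Tuba1c, the alpha isotype that was higher in KO oocytes, was thus under 2-fold apart at this stage.

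Tubb3 was at 39.2 to 162 CPM with a median of 73.7 in KO 2-cell samples, against 21.7 to 86.0 CPM with a median of 36.7 in WT samples (log2 1.17, 1.10 to 1.25). All 9 KO samples lay above the WT median of Tubb3; the ratio was 0.91 without KO replicate 4 and 1.62 without WT replicate 8. Tubb6 was at 42.6 to 320.3 CPM with a median of 81.9 in KO samples, against 28.9 to 90.5 CPM with a median of 71.2 in WT samples (log2 1.07). Its ratio rested on KO replicate 4, at 320.3 CPM, and was 0.38 without that library and 0.94 without WT replicate 4. Tubb5 was at 14.7 to 75.9 CPM with a median of 51.6 in KO samples, against 72.4 to 136 CPM with a median of 112 in WT samples (log2 -0.97, -1.04 to -0.91). Every KO sample lay below the WT median of Tubb5, and without WT replicate 8 the groups lay apart at a log2 ratio of -1.11. Such a separation held for 13.4% of genes on the lower side. The ratio also reached 2-fold without any 1 of KO replicates 5, 6 and 7, and was at -1.07 without replicate 7. Tubb2a was at 97.1 CPM in the KO pool and 64.1 CPM in the WT pool (log2 0.60), and at 1.05 without WT replicate 8. Tubb4b was at 44.7 to 304.4 CPM in KO samples and 97.6 to 228 CPM in WT samples (log2 -0.30). Tubb2b stayed at 4.47 CPM in the KO pool and 2.22 CPM in the WT pool, under the level compared.

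Without WT replicate 8, 3 isotypes were higher (Tubb3, Tubb6 and Tubb2a) and 4 lower (Tuba1a, Tuba1b, Tuba4a and Tubb5), beside 11.3% and 36.9% of genes. Without KO replicate 4 no isotype was 2-fold higher. The median log2 ratio was -0.30 in the isotypes and -0.35 over all genes, and TMM factors added 0.29 to every gene. Summed alpha isotypes were at 103.7 CPM in the KO pool and 175.9 CPM in the WT pool (log2 -0.76), and summed beta isotypes at 528.1 CPM in KO and 438.2 CPM in WT (log2 0.27). Both sums depended on what entered them. Without KO replicate 4 the log2 ratio of the beta sums was 0.0002, and the library medians of summed beta tubulin were 436.0 CPM in KO and 436.8 CPM in WT. Over all alpha rows the pools held 239.5 CPM in KO and 233.1 CPM in WT (log2 0.04). Within the alpha isotypes Tuba1c took 64.8% in KO and 45.7% in WT, Tuba1b 16.7% in KO and 26.9% in WT, and Tuba1a 4.05% in KO and 10.6% in WT. Over all alpha rows the order turned, with Tuba1c at 28.0% in KO and 34.5% in WT. Within the beta isotypes Tubb5 took 10.2% in KO and 24.3% in WT, Tubb4b 22.9% in KO and 34.1% in WT, Tubb3 20.0% in KO and 10.7% in WT, and Tubb6 27.6% in KO and 15.8% in WT. Summed 2-cell markers ran from 145 to 2105 CPM in KO and from 751 to 1561 CPM in WT samples, and summed oocyte markers from 6139 to 29848 CPM in KO and from 3618 to 11623 CPM in WT; their part in these differences was not tested.

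**Figure D3:**
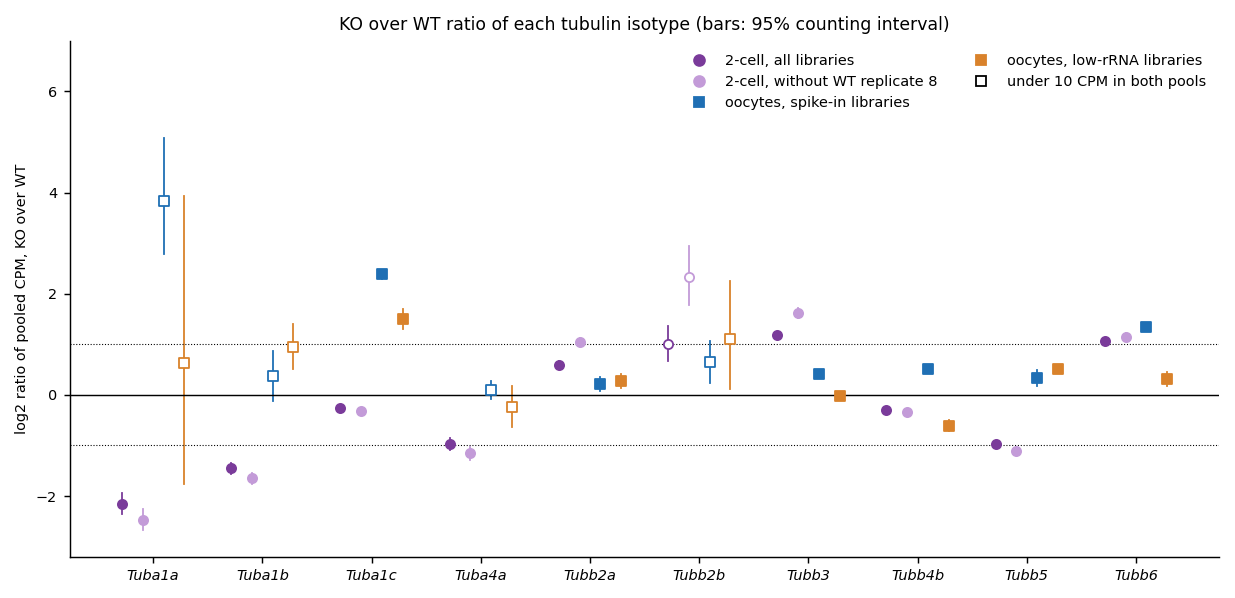
Log2 ratio of pooled CPM, KO over WT, for each isotype in 2-cell samples with and without WT replicate 8 and in spike-in and low-rRNA oocytes; vertical bars are 95% counting intervals, dotted lines 2-fold, and open symbols pools under 10 CPM. Tuba1c is above 2-fold in both oocyte sets and at -0.26 in 2-cell samples, where Tuba1a (-2.15) and Tuba1b (-1.45) are below 2-fold.

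The deposited tables also split 2-cell counts by parent of origin, which separates RNA made by the embryo from its paternal genome from RNA that may be maternal stock or new. The father's strain is not labelled for these samples, so the shares are given as deposited. Over the 10 isotypes 13.1% (12.6 to 13.7) of allele-assigned counts were paternal in KO 2-cell samples and 32.2% (31.2 to 33.2) in WT samples, or 37.5% without WT replicate 8. By library the share was 8.08 to 30.2% in KO and 16.47 to 43.4% in WT samples. Over all genes it was 2.79% in KO and 14.6% in WT samples, so the tubulin counts were more paternal than the whole table in both genotypes. Paternal counts over all genes were at 11050 CPM in KO and 54033 CPM in WT samples, and maternal ones at 384339 CPM in KO and 316388 CPM in WT. The paternal and maternal ratios of single isotypes below stand beside these values. Among genes with 50 or more allele counts the median paternal share was 3.34% in KO and 21.6% in WT samples, and 5.23% and 15.7% of them were at 50% or more.

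Tuba1b and Tuba1a were the isotypes with most of their pooled allele counts paternal, for Tuba1a in KO on few counts. For Tuba1b 548 of 670 allele counts (81.8%) were paternal in KO samples and 361 of 532 (67.9%) in WT samples. By library Tuba1b ranged from 54.5 to 85.7% in KO and from 55.3 to 87.2% in WT. It was the isotype whose paternal share was higher in KO, and its paternal CPM had a log2 ratio of 0.06 (-0.13 to 0.26; -0.16 without KO replicate 4 or WT replicate 8) while its maternal CPM was lower (-1.03, -1.38 to -0.68). Allele-assigned counts made up 62.0% of Tuba1b counts in KO and 26.2% in WT samples, and the cause of that gap was not tested. Tuba1a had 30 of 53 allele counts (56.6%, 42.3 to 70.2) paternal in KO and 104 of 157 (66.2%, 58.3 to 73.6) in WT samples. The KO interval holds 50%, the median over KO libraries was 47.2%, and 3 of 9 KO libraries had 0 paternal Tuba1a counts. Tuba1c was at 32.1% in KO and 48.0% in WT, and Tuba4a at 22.4% in KO and 35.3% in WT.

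For the beta isotypes the split by allele showed where the KO and WT pools differed. Over all genes, too, paternal CPM was lower and maternal CPM higher in KO, as given above. Tubb3 had 37 of 2580 allele counts (1.43%) paternal in KO and 97 of 722 (13.4%) in WT samples. The KO share was 2.22% without KO replicate 4, and the WT share 20.9% without WT replicate 8. Maternal Tubb3 was higher in KO (log2 1.48, 1.36 to 1.61; 1.16 without KO replicate 4 and 2.03 without WT replicate 8) and paternal Tubb3 lower (-1.93). Tubb6 was 5.30% paternal in KO and 33.9% in WT, with a maternal log2 ratio of 1.61 and a paternal one of -1.58. KO replicate 4 held 1333 of the 2465 maternal Tubb6 counts of KO and 1 of the 138 paternal ones; without it the KO share was 10.8%, the maternal ratio 0.89 and the paternal ratio -1.20. Tubb5 was lower in KO from both alleles, by a paternal log2 ratio of -1.78 and a maternal one of -0.62, with 17.4% paternal in KO and 32.0% in WT. Tubb4b had 18.8% paternal in KO and 39.9% in WT; its paternal counts were lower (log2 -1.40) and its maternal counts close (0.12). Tubb2a was almost all maternal in both genotypes, at 2.83% paternal in KO and 3.27% in WT, or 5.11% without WT replicate 8. Tubb2b had 0 of 56 paternal counts in KO and 0 of 25 in WT, which allow shares of up to 5.36% and 12% if the limit is 3 counts of the total, or 6.38% and 13.7% as the upper Clopper-Pearson bound. Counting intervals aside, the spread between libraries was wide: paternal Tubb3 ran from 3.54 to 58.5% in WT samples.

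**Figure D4:**
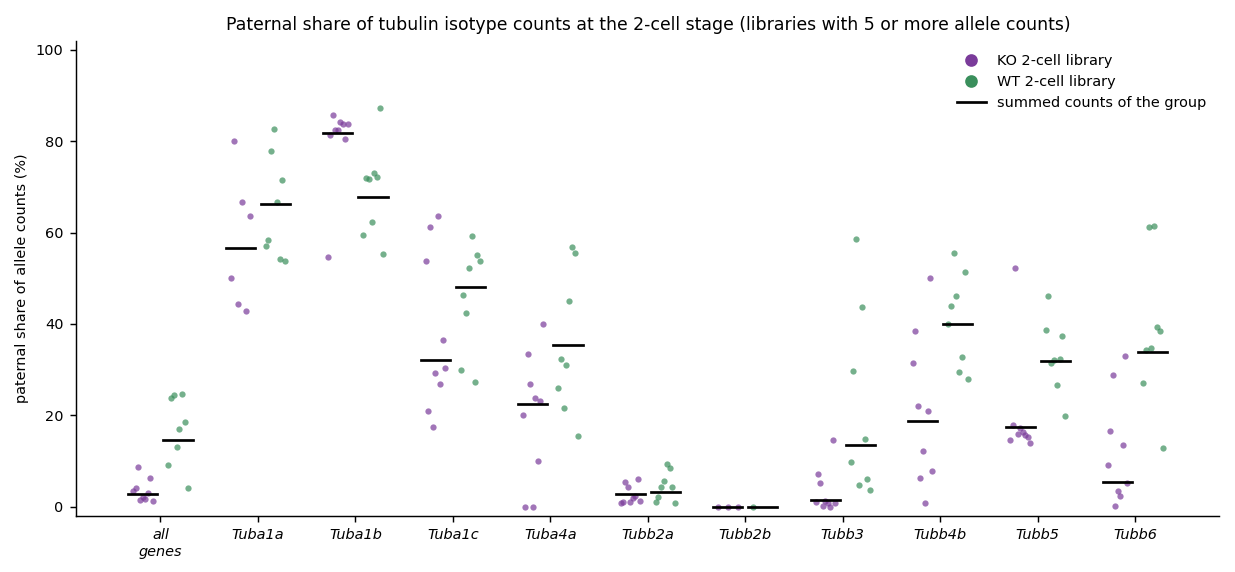
Paternal share of allele-assigned counts for all genes and each isotype in KO and WT 2-cell libraries with 5 or more allele counts; black bars give the summed counts of a group. Tuba1b sits at 81.8% in KO and 67.9% in WT, Tubb2a under 10% in every library of both genotypes, and Tubb3 at 1.43% in KO and 13.4% in WT.

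The lists of genes that fold, nucleate, modify and bind tubulin, chosen with earlier results known, are set against the 5.96% of all genes that were higher and 31.6% that were lower in KO 2-cell samples. Of 17 folding genes compared 0 were higher and 8 lower in KO than in WT samples, with a median log2 ratio of -0.73 beside -0.35 over all genes. They included Tbcb, a cofactor that folds alpha tubulin, at 8.96 CPM in KO and 66.0 CPM in WT (log2 -2.88), Pfdn6, a prefoldin subunit (-2.06), Cct4, a chaperonin subunit (-1.85), and Tbcc, a cofactor of the last folding step (-1.76). Of 15 nucleation genes compared 3 were higher and 7 lower; all 4 with the largest ratios are subunits of augmin, which branches microtubules in spindles: Haus2 (-2.80), Haus6 (-1.91), Haus5 (1.90) and Haus7 (-1.66). Of 18 microtubule-associated and severing genes compared, Mapre2, an end-binding protein, was higher (1.12) and Stmn3, a stathmin that binds free tubulin, was lower (-5.41), with a median of 0.10. Of 5 other tubulin genes compared Tubal3 (1.80), Tubd1 (1.29) and Tuba3a (1.08) were higher and 0 lower, and of 10 modification genes 0 were called. Without WT replicate 8, 11.3% of all genes were higher and 36.9% lower. There the counts were 0 higher and 8 lower for folding, 4 and 7 for nucleation and 1 and 2 for microtubule-associated genes. Other tubulin genes had 4 and 0, and modification genes 3 and 1 of 11.

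Between stages the list counts are read against 41.1% of all genes higher and 14.3% lower in WT, and 23.6% higher and 17.4% lower in KO. In WT, 8 of 17 folding genes were higher and 3 lower in 2-cell samples than in oocytes, led by Cct6a, a chaperonin subunit, at 115 CPM in WT 2-cell samples and 2.20 CPM in WT oocytes (log2 5.71). Tbcb (3.04) and Pfdn6 (2.79) were higher and Pfdn4 (-3.62) was lower. In KO, 1 of 18 folding genes was higher in 2-cell samples than in oocytes, Cct6a (4.11), and 6 were lower, led by Pfdn4 (-2.57), Arl2 (-1.83) and Pfdn1 (-1.53). Nucleation genes had 5 higher and 3 lower of 16 in WT, with Haus2 at 5.18, Mzt2 at 3.95, Haus1 at 2.83 and Haus7 at 2.25, and 0 higher and 3 lower of 13 in KO. The WT 2-cell samples are also the reference of the KO comparison above, so these values are not independent of it. Among microtubule-associated genes Stmn3 (7.89) was higher in WT 2-cell samples, and Fignl1, a severing protein (-2.71), Map9 (-1.90) and Clip1 (-1.47) were lower. In KO 2-cell samples 2 of 17 microtubule-associated genes were higher and 5 lower than in KO oocytes, among them Clip1 (-2.22), Fignl1 (-2.06), Tpx2, a spindle assembly factor (-1.60), and Map9 (-1.27). In WT 2 of 18 were higher and 6 lower. Modification genes had 3 higher and 0 lower of 9 in WT, Ttll1 (1.51), Hdac6, a tubulin deacetylase (1.44), and Ttll4 (1.09), and 4 higher and 0 lower of 9 in KO, led by Ttll7, a polyglutamylase (3.20). Of 5 other tubulin genes 4 were lower in WT 2-cell samples, Tube1, epsilon tubulin of the centriole (-1.82), Tubal3 (-1.62), Tuba3a (-1.51) and Tubd1 (-1.11), and 2 in KO, Tuba3a (-1.40) and Tube1 (-1.16). Against spike-in oocytes the KO counts were 1 higher and 6 lower of 17 for folding and 2 and 2 of 13 for nucleation. Modification had 1 and 0 of 10, microtubule-associated genes 0 and 4 of 17, and other tubulin genes 0 and 0 of 5. The background was 19.5% and 16.3%. WT had 7 and 3 of 18 for folding, 6 and 1 of 16 for nucleation and 2 and 0 of 9 for modification. Microtubule-associated genes had 1 and 4 of 18 and other tubulin genes 0 and 3 of 5, beside 42.1% and 12.8%.

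In epiblast, IVC samples were compared with E6.5 samples by the edgeR quasi-likelihood F test with Benjamini-Hochberg adjustment over 11565 genes. Tubb5 rose and Tubb2a fell in IVC, and the other 8 isotypes did not pass; 12% of all genes rose and 23.5% fell. Values are CPM on TMM-scaled library sizes. Tubb5 was at 4077 and 3194 CPM in IVC and 1950 and 2004 CPM in E6.5 epiblast (log2 0.88, SE 0.15, adjusted p = 0.0393). Tubb2a was listed at 0 in both IVC samples and at 5.88 and 7.51 CPM in E6.5 epiblast (adjusted p = 0.0398), at least 43.6-fold lower against a floor of 3 counts over the group. Both calls were lost without either E6.5 sample, where no isotype passed. DESeq2 kept Tubb2a (adjusted p = 0.000189) and lost Tubb5 (0.302). Each group was deposited in its own table, Rn45s took 0.10 to 0.12% of counts in IVC and 23.3 to 26.2% in E6.5 samples, and group and table cannot be told apart.

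Tubb4b was at 146 and 184 CPM in IVC and 287 and 285 CPM in E6.5 epiblast (log2 -0.80, SE 0.22, adjusted p = 0.0617). Tuba1b, at 878 and 1013 CPM in IVC and 745 and 850 CPM in E6.5 epiblast, had a log2 ratio of 0.25 (SE 0.15, adjusted p = 0.308). Tuba1a, at 311 and 455 CPM in IVC and 239 and 274 CPM in E6.5 epiblast, had 0.58 (SE 0.26, adjusted p = 0.182). Tuba1c was at 79.8 and 178 CPM in IVC and 57.7 and 69.0 CPM in E6.5 epiblast (log2 1.03, adjusted p = 0.224). The 2 IVC samples differed more from each other than the 2 E6.5 samples did for each of the 3 Tuba1 genes.

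Tuba4a, Tubb3, Tubb6 and Tubb2b had lower values in both IVC samples than in both E6.5 samples, but none of these 4 passed the test. Tuba4a was at 1.18 and 14.2 CPM in IVC and 54.6 and 40.8 CPM in E6.5 epiblast (adjusted p = 0.245). Tubb3 was at 6.22 and 0.21 CPM in IVC and 22.1 and 19.3 CPM in E6.5 epiblast (adjusted p = 0.350). Tubb6 was at 0 and 22.8 CPM in IVC and 52.2 and 44.1 CPM in E6.5 epiblast (adjusted p = 0.603). Tubb2b was at 5.47 and 2.55 CPM in IVC and 10.9 and 14.0 CPM in E6.5 epiblast (adjusted p = 0.333). The groups overlapped for none of the 10 isotypes: 4 lay higher in both IVC samples and 6 lower, where 23.7% and 50.4% of the genes tested did so. The median log2 ratio was -1.21 in the isotypes and -0.85 over all genes; without TMM factors the median of all genes was -1.13 and Tuba1b was at -0.03.

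Tubb5 took 95.2% of beta isotype counts in IVC and 84.2% in E6.5 epiblast, and Tubb4b 4.32% in IVC and 12.1% in E6.5. Among alpha isotypes Tuba1b took 64.5% in IVC and 68.6% in E6.5, and Tuba1c 8.81% in IVC and 5.50% in E6.5. Among the alpha isotypes summed here, counts were thus mostly Tuba1b in epiblast and mostly Tuba1c in oocytes. With other alpha rows beside them this did not hold in oocytes. Tuba3a was at 112.9 CPM and Tuba1c at 57.6 CPM in the KO oocyte pool, and at 57.7 and 18.4 CPM in the WT oocyte pool. Summed epiblast markers were at 1128 to 1249 CPM in IVC and 4689 to 5512 CPM in E6.5 samples, with all 9 detected in both groups. Markers of extraembryonic ectoderm and trophoblast summed to 6260 to 6316 CPM in IVC and 174 to 176 CPM in E6.5 samples; nearly all of the IVC sum was Prl3d1, a placental hormone of trophoblast giant cells, at 6257 CPM in IVC and 3.09 CPM in E6.5 pooled, while Cdx2, Bmp4, Ascl2, Tpbpa and Gcm1 were at 0 in IVC. Visceral endoderm markers summed to 548 to 591 CPM in IVC and 162 to 190 CPM in E6.5 samples. The part of these markers in the isotype differences was not tested, and in such bulk samples fewer cells of a type and less RNA per cell cannot be told apart.

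Of 21 folding genes tested 10 rose and 1 fell in IVC epiblast, where 12% of all genes rose and 23.5% fell. Their median log2 ratio was 0.87, beside -0.85 over all genes. Pfdn1 was at 454 and 519 CPM in IVC and 22.4 and 16.9 CPM in E6.5 epiblast (log2 4.63, SE 0.27, adjusted p = 0.00494). Pfdn4 (4.55), Tbcb (4.4) and Pfdn6 (3.77) had similar log2 ratios, and Cct3 was the gene of the list that fell (-1.01). Of 18 nucleation genes 1 rose, Haus1 (3.74), and 2 fell: Tubgcp2, a gamma-tubulin complex subunit (-6.38), and Tubgcp6, at 0 in IVC and at least 302-fold lower. Of 17 modification genes 2 rose and 4 fell. Tpgs1, a polyglutamylase subunit (4.95), and Svbp, the partner of the detyrosinating vasohibins (4.82), rose, while Ttll12 and Agtpbp1 were at 0 in IVC, at least 538-fold and 81.3-fold lower. Of 23 microtubule-associated and severing genes 1 rose and 6 fell, among them Map4 (-6.53) and Camsap2, a minus-end binder (-6.30), and Map7 and Clip2, both at 0 in IVC and at least 136-fold lower. Of 4 other tubulin genes 0 rose and 2 fell, Tuba3a and Tubd1, both at 0 in IVC and at least 14.3-fold and 21.2-fold lower. All bounds use 3 counts over the IVC group.

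**Figure D5:**
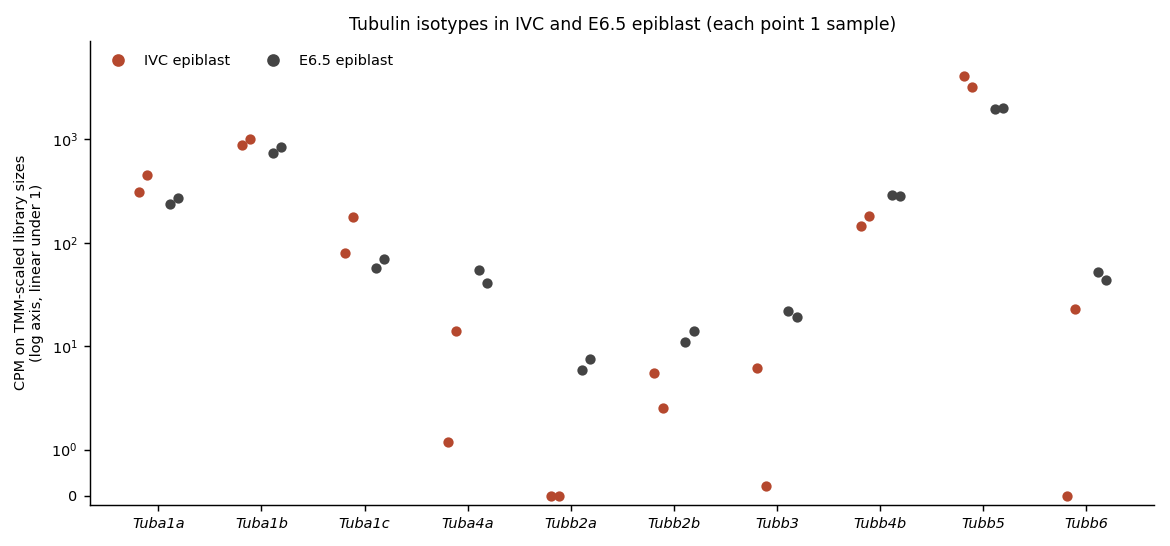
CPM on TMM-scaled library sizes of the 10 isotypes in 2 IVC and 2 E6.5 epiblast samples, each point 1 sample, on an axis that is logarithmic above 1 and linear below. Tubb5 lies at 4077 and 3194 CPM in IVC and at 1950 and 2004 CPM in E6.5 epiblast, and Tubb2a at 0 in both IVC samples.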

How the data were processed

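The values used are raw counts per gene symbol, deposited by the authors without normalization: 1 table of total counts and 2 allele tables for oocytes and 2-cell samples, and 1 table for each epiblast group. Per the submitters' processing notes the tools, given without roles, included featureCounts 2.0.1, HTSeq 0.10.0, STAR 2.6.0a, Trim Galore 0.6.6 and cutadapt 1.15, and the build was mm9; how reads shared by near-identical paralogs or pseudogenes were counted is not given in the sources used here, so splits among Tuba1a, Tuba1b and Tuba1c, and between Tubb2a and Tubb2b, are uncertain. The notes also name tools for the 155 samples of other assays, which were not analysed here; of the 209 samples of the series 54 were used. CPM are counts for every 1000000 gene counts of a library, with 92 spike-in rows left out. In the allele tables all 33 oocyte columns repeated the total (maternal) or were 0 (paternal), so only 2-cell samples were split; no isotype value of a 2-cell library had more allele than total counts, while 2046 values of other genes did. The libraries hold no molecular identifiers named in the labels, so intervals (exact conditional Poisson for ratios, Clopper-Pearson for shares, 95%) cover counting error only. No library was a copy of another (smallest chi-square per gene 14.3).

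For epiblast, genes kept by filterByExpr were compared in R 4.3.3 by the two-sided quasi-likelihood F test of edgeR 4.0.16 on TMM-scaled libraries, with a Benjamini-Hochberg adjusted p under 0.05 as the threshold; the procedure was tested on simulated data. Nothing in the labels says that the epiblast samples came from separate animals or cultures, so p-values measure the spread between these samples. The SE is the log2 ratio over the root of F. DESeq2 1.42.0 was an alternative. All 10 isotypes are named in every comparison, with up to 4 called genes of each list with the largest ratios, the 5 genes nearest to Tuba1c, and Nlrp14; Cct3 was named after its value was seen. The isotypes and lists were chosen with earlier results of these data known. Promoters came from the RefSeq table of GRCm38.p6. Alternatives were other scalings, medians over libraries, no filter, library sets, left-out libraries and a replicate block. The limit given for a count of 0 is 3 counts of the total. The share and sum over all alpha rows, the allele ratios without KO 2-cell replicate 4 or WT 2-cell replicate 8, totals without Rn45s, the WT stage comparison on spike-in oocytes without WT 2-cell replicate 8 and the list counts without that replicate were added after the data were seen.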

Additional observations from a re-analysis of the deposited data

Results flagged for a closer look

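In 28 sets of 8 or 9 2-cell libraries (the CPM of each isotype, summed levels and shares, in KO and WT), Dixon's test at 95% marked a library far from the rest in 9 cases. The nominal rate is about 1 in 20. The sets share libraries and counts, and 5 of the cases are WT replicate 8, so this rate cannot judge the count. Among KO 2-cell samples replicate 3 was the highest for Tuba1a at 29.2 CPM, with 8.23 CPM next, and for Tubb4b at 304.4 CPM, with 140.0 CPM next. KO replicate 4 was the highest for Tubb6 at 320.3 CPM, with 129.3 CPM next, and is also the deepest 2-cell library. Among WT 2-cell samples replicate 8 was the highest for Tubb2a at 118 CPM, Tubb2b at 6.41 CPM and Tubb3 at 86.0 CPM, had the highest Tuba1c share of alpha counts at 59.4%, and had the lowest paternal share of isotype counts at 16.47%, with 33.7% next. In each of these 5 measures it lay within the range of the KO 2-cell samples. WT replicate 4 was the lowest for Tubb6 at 28.9 CPM.

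For Tuba1b and Tuba4a the KO libraries lay on opposite sides of the WT median in 2-cell samples and in spike-in oocytes, a difference that was not tested. All 9 KO 2-cell samples lay below the WT 2-cell median of both genes (log2 ratios -1.45 and -0.97), while all 7 KO spike-in oocytes lay above the median of the WT spike-in oocytes (0.37, -0.12 to 0.86, and 0.09, -0.08 to 0.27). Both of these intervals hold 0, and both genes were under 10 CPM in the oocyte pools. For Tuba4a the lowest KO spike-in oocyte was at 7.69 CPM and the WT spike-in median at 7.67 CPM, so that side rests on almost no difference. The share of all genes with such a pattern was not counted, and the libraries are not replicates of a genotype, so nothing is read from it. Over all oocytes Tuba4a had a log2 ratio of -0.31 (-0.46 to -0.16) and in low-rRNA oocytes -0.24, the direction of the 2-cell samples, while Tuba1b had 0.93 and 0.94.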

How the results depend on the processing

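With 1 pooled sample per oocyte or 2-cell group the calls rest on size alone. Tuba1c kept at least a 2-fold difference between KO and WT oocytes under every scaling, with any 1 library left out (log2 1.51 to 1.96) and in the spike-in and low-rRNA sets. In the remaining libraries it was under 2-fold (0.95). This difference was known when the isotypes were chosen, so these values only describe it and lend it no support. In low-rRNA libraries 1 isotype was 2-fold higher in KO, beside 1.98% of genes. Leaving out 1 library gave 1 to 2 isotypes higher between KO and WT oocytes; 0 to 3 higher and 2 to 4 lower between KO and WT 2-cell samples; 6 to 7 higher between WT stages; and 4 to 5 higher between KO stages, where summed beta tubulin ran from -0.20 to 0.13. Medians over libraries gave 1 higher and 4 lower between KO and WT 2-cell samples and a summed alpha ratio of 1.06 between KO stages. The share of all genes was not counted for medians or, but for WT 2-cell replicate 8, for left-out libraries. Nothing is therefore read from those counts. TMM factors gave summed beta ratios of 0.55 (KO and WT 2-cell samples) and -0.39 (WT stages) and a summed alpha ratio of 2.16 (WT stages). Against spike-in oocytes, KO stages gave 3 higher, 1 lower, a summed alpha ratio of -0.10 and a reversed Tubb5 (2.17). Summed over all alpha rows, the alpha ratio was 0.039 between KO and WT 2-cell samples, 0.60 between WT stages and -0.32 between KO stages, where its sign turned. The Tuba1c share over all alpha rows was 19.3% in KO oocytes, 12% in WT oocytes, 28.0% in KO 2-cell samples and 34.5% in WT 2-cell samples.

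In epiblast DESeq2 gave 0 isotypes higher; library sizes without factors gave 2 lower and a reversed Tuba1b (-0.029); no filter gave 0 lower. Same-numbered samples deviated together with a correlation of only 0.000697 and are not pairs by design; with the replicate block 1 isotype was higher (Tubb5, adjusted p = 0.0445) and 0 lower (Tubb2a, 0.467), and over all genes 893 rose and 361 fell, against 1389 and 2717 without it. Leaving out 1 sample gave 0 to 3 isotypes higher and 0 to 6 lower, and for all genes 612 to 2880 higher and 118 to 5476 lower. The cause of these changes was not tested.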
